A study of Mus musculus with 4 samples.

Results

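The genes described here are named as those of the proteins of the cytosolic ribosome, the particle that translates messenger RNA outside the mitochondria. They were found by symbol: the Ensembl identifier given to each tag was turned into a gene symbol, and symbols of the form Rps or Rpl followed by a number, with at most a short suffix, were kept together with Rpsa, while symbols of pseudogenes marked -ps were left out. This rule found 75 genes among the 26252 genes and transcript clusters of the table, of which 17677 were Ensembl genes. The small subunit (Rps genes and Rpsa) contributed 31 genes and the large subunit (Rpl genes) 44. The annotation holds 86 symbols of this form, and the other 11 were given no tag in the table. The annotation gives 73 of the 75 as protein-coding and 2, Rps12l1 and Rps3a2, as processed pseudogenes. Rps12l1 held 39565 counts, 93.8% of them on a tag that matches the transcripts of 19 genes. The rule does not take in the stalk proteins Rplp0, Rplp1 and Rplp2 or Fau, a precursor of a small-subunit protein, which are given separately.

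The libraries came from forelimbs and hindlimbs of embryos of the outbred CD1 mouse strain at E14.5, a mid-gestation stage of limb growth. Total RNA of each limb type was made into DGE-SAGE libraries, in which cDNA is cut by NlaIII at CATG and the 17 bases next to the cut are sequenced and counted as a tag. There were 2 forelimb and 2 hindlimb libraries, called biological replicates in the labels, which do not say how many embryos a library holds or whether equal numbers mark the same embryos. No treatment, transgene or mutation is named. The libraries held 4695786 and 1829647 counts in the forelimb and 5325279 and 5015295 in the hindlimb, and forelimb replicate 2 is therefore the least precise. The limb labels were matched by Tbx5, a forelimb transcription factor, at 18.3 and 14.8 CPM in forelimb against 0.889 and 1.51 in hindlimb, and by Pitx1, a hindlimb transcription factor, at 3.31 and 1.24 against 253 and 303 CPM (CPM, a library's gene-assigned counts scaled to a common size, with edgeR's TMM factors).

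Each ribosome holds a single copy of nearly all of its proteins, and cells make these proteins in matched amounts. In vertebrates many of their mRNAs begin with a 5' terminal oligopyrimidine tract, a run of C and T at the cap, through which growth signals acting by mTORC1 regulate translation of the whole group together. Mutations in single members cause Diamond-Blackfan anaemia in people, with limb and skeletal malformations in part of the patients, and in the mouse loss of 1 copy of Rpl38 alters the pattern of the axial skeleton.

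A level measured with tags rests on very few sequences per gene, so tags of members with strong differences are shown first. Capitals mark G and C, and each tag is written 5′ to 3′ on the strand of the mRNA. Positions are those of GENCODE M21 on GRCm38, found by matching the tag to the transcripts. The first 5 are the most abundant tags of members with strong differences that were higher in hindlimb, and the next 2 those of members higher in forelimb.
Rps9, 70.6% GC, coding sequence, chr7:3705889-3705905, plus strand: CCCGtGtGCtCatCCGC
Rpl22l1, 58.8% GC, coding sequence split by an intron, chr3:28805538-28806510, plus strand: GCGCCGCaGaaaGaCaa
Rps13, 76.5% GC, coding sequence split by an intron, chr7:116333943-116334095, minus strand: CaCGCtCCCGGGaaGGG
Rps3, 70.6% GC, coding sequence, chr7:99479284-99479300, minus strand: CCCCaGCCaGtGCCtaC
Rps7, 58.8% GC, coding sequence, chr12:28635635-28635651, minus strand: ttCaGCtCGaGCGCCaa
Rpl19, 29.4% GC, 3' UTR, chr11:98030440-98030456, plus strand: tGGatCaGtCtttaaaa
Rpl9, 35.3% GC, 3' UTR, chr5:65388391-65388407, minus strand: aaCaatttGGGCtCttt

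The 5 hindlimb tags are rich in G and C and lie in coding sequence, and the 2 forelimb tags are rich in A and T and lie in the 3' UTR. The tag of Rpl19 matches the transcripts of no other gene and that of Rps13 the transcripts of 6 genes, while each of the others matches 2. These tags held from 83.9% (Rps3) to 99.9% (Rps7) of their genes' counts. Over all members, 86.2% of counts fell on tags in coding sequence and 10.5% on tags in the 3' UTR. By position, 54.2% of counts lay at the last NlaIII site before the poly(A) end, 20.8% at the second from the end and 24.2% further upstream.

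The ribosomal protein genes made up 9.32% and 8.02% of the gene-assigned counts of the 2 forelimb libraries and 10.7% and 12.7% of the 2 hindlimb libraries. Both hindlimb libraries lay above both forelimb libraries. The means were 8.67% ± 0.916 (SD, n = 2) and 11.7% ± 1.40 (SD, n = 2), a difference of 3.04 percentage points with p = 0.333 in a two-sided exact permutation test, the smallest p that 2 libraries against 2 can give. Small-subunit genes went from 3.55% and 3.17% in forelimb to 4.40% and 5.20% in hindlimb, and large-subunit genes from 5.76% and 4.85% to 6.31% and 7.50%. The mean GC of the members' tags, weighted by counts, moved in the same order, from 46.1% and 45.2% in forelimb to 51.3% and 54.0% in hindlimb. The mean GC of all gene-assigned tags was 40.6% and 40.2% in forelimb and 46.3% and 50.4% in hindlimb, so this shift was shared by the rest of the table. In bulk tissue, more of a cell type and more RNA per cell cannot be told apart.

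All 4 libraries held ribosomal protein tags at high levels. Of the 75 genes, 41 had a mean above 1000 CPM, 22 lay between 100 and 1000 CPM and 12 lay below 100 CPM. Tag counts do not scale with transcript length, but they carry the tag's base composition, so the order of levels between genes is given as measured and no more. Among the 6 most abundant members was Rpl21, a large-subunit protein, at 3467 and 2499 CPM in forelimb and 4866 and 6831 in hindlimb. Rpl7, a large-subunit protein, stood at 5771, 3468, 3911 and 3884 CPM in forelimb replicates 1 and 2 and hindlimb replicates 1 and 2. Rps10, a small-subunit protein, was read at 3664, 2443, 4284 and 6334 CPM in the same order. The limb types overlapped for Rpl7, whose highest library was forelimb replicate 1, but not for Rpl21 or Rps10. Rpl11 was at 3683, 2787, 2838 and 4466 CPM, with the limb types overlapping. None of the 4 genes named in these sentences passed the test between limb types, with edgeR adjusted p from 0.0525 for Rpl21 to 0.758 for Rpl11.

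**Figure D1:**
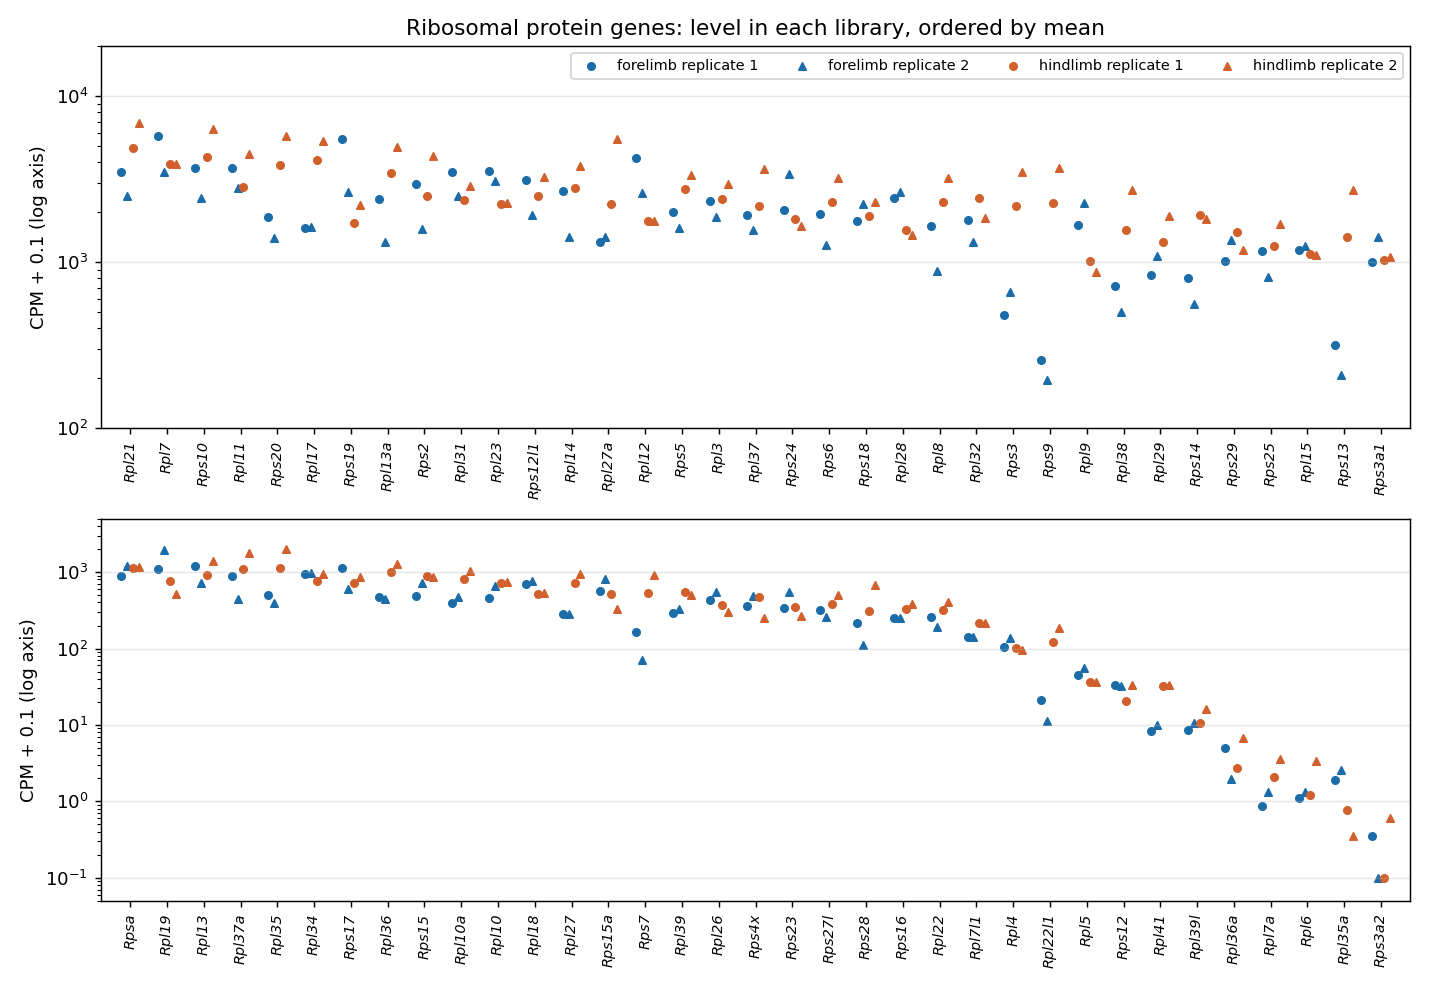
Level of 70 ribosomal protein genes with at least 1 count, in CPM + 0.1 on a log axis, ordered by mean over the 4 libraries and split over 2 panels with different axes. Blue marks forelimb and orange hindlimb, with circles for replicate 1 and triangles for replicate 2; Rps9, Rps13, Rps7 and Rpl22l1 show the widest gaps between limb types.

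Hindlimb and forelimb were compared gene by gene with edgeR's quasi-likelihood test over all 13718 genes with enough counts, at an adjusted p under 0.05, and log2 fold changes are hindlimb over forelimb. The filter on low counts kept 69 of the 75 members. Rpl3l and Rps21 had no count at all, while Rpl35a, Rpl6, Rpl7a and Rps3a2 had 15, 24, 28 and 3 counts in all. Of the 69 tested, 20 passed as higher in hindlimb and 3 as higher in forelimb, and 46 were not called. Over all genes tested, 9.58% were called higher in hindlimb and 7.08% higher in forelimb. The median log2 fold change of the members was 0.57, against -0.03 for all genes. Of 29 small-subunit genes tested, 8 were above and 1 below at that threshold in hindlimb, with a median of 0.57, and of 40 large-subunit genes 12 and 2, with a median of 0.55. Both hindlimb libraries lay above both forelimb libraries for 38 members and below them for 15, and the limb types overlapped for 16. Of all genes tested, 31.4% lay apart with hindlimb higher and 31.4% with forelimb higher.

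Rps9, a small-subunit protein near the entry of the mRNA channel, stood at 258 and 195 CPM in forelimb and 2272 and 3689 in hindlimb. The hindlimb libraries were both higher, by a log2 fold change of 3.71 ± 0.34 (± SE here and below, edgeR adjusted p = 4.30e-05). Rpl22l1, a paralogue of Rpl22, was less abundant, at 20.9 and 11.1 CPM in forelimb and 123 and 187 in hindlimb. Again the limb types did not overlap, and the log2 fold change was 3.21 ± 0.38 (edgeR adjusted p = 0.000148). Rps13, a small-subunit protein, was at 315 and 209 CPM in forelimb and 1409 and 2711 in hindlimb, a log2 fold change of 2.97 ± 0.36 (edgeR adjusted p = 0.000215).

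Rps3, which lines the mRNA entry channel, was at 479 and 656 CPM in forelimb and 2171 and 3479 in hindlimb. Its log2 fold change was 2.32 ± 0.34, with an edgeR adjusted p of 0.000677. Rps7, a small-subunit protein mutated in some patients with Diamond-Blackfan anaemia, was at 167 and 71.7 CPM in forelimb and 526 and 922 in hindlimb. The 4 libraries of Rps7 did not overlap between limb types, and the log2 fold change was 2.59 ± 0.39 (edgeR adjusted p = 0.00095). A further 14 members higher in hindlimb had log2 fold changes from 1.11 for Rpl10a to 1.87 for Rpl41. The value of Rpl41, a very small large-subunit protein, rests on 324 counts of 1 tag that matches no annotated transcript, while 4777 of the 4822 counts that match Rpl41 were listed under Gm10076. With tags counted to the gene they match, an alternative chosen after seeing the data, Rpl41 was at -0.041 ± 0.36 (edgeR adjusted p = 0.954), so its call was lost.

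The members higher in forelimb had smaller differences. Rpl19, a large-subunit protein that reaches a bridge to the small subunit, was at 1097 and 1949 CPM in forelimb and 755 and 519 in hindlimb. Its log2 fold change was -1.26 ± 0.35 (edgeR adjusted p = 0.0215). Rpl9, a large-subunit protein, was at 1662 and 2278 CPM in forelimb and 1018 and 873 in hindlimb, a log2 fold change of -1.06 ± 0.32 (edgeR adjusted p = 0.0319). For both genes the limb types did not overlap. Both calls were lost in 2 of the 4 fits that left out a library: without forelimb replicate 2 the log2 fold changes were -0.79 for Rpl19 and -0.82 for Rpl9, and without hindlimb replicate 2 they were -0.99 and -0.94. Both passed without forelimb replicate 1 (-1.61 and -1.27) and without hindlimb replicate 1 (-1.56 and -1.19).

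The number of members called depended on the libraries in the fit, and so did that of all genes. Without forelimb replicate 2, 13 members were higher in hindlimb and 2 in forelimb, against 3.98% and 2.50% of all genes. Without hindlimb replicate 2 the numbers were 14 and 1, against 4.41% and 2.75%. Without forelimb replicate 1 they were 19 and 3, against 4.36% and 2.83%, and without hindlimb replicate 1 they were 29 and 5, against 13.2% and 13.9%. The median log2 fold change of the members stayed above 0 in these 4 fits, between 0.37 and 0.75.

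Tags of higher GC content were higher in hindlimb, in ribosomal protein genes as in all genes. Over the 69 members tested, Pearson's r between a gene's tag GC and its log2 fold change was 0.69 (Spearman's rho 0.65), and over all 13718 genes it was 0.64. Genes are not independent replicates, and all points come from the same 4 libraries. Among the 14 members with tag GC up to 40%, none was higher in hindlimb and 3 were higher in forelimb, with a median log2 fold change of -0.60. Among the 12 members above 60%, 8 were higher in hindlimb and none in forelimb, with a median of 1.68. All genes in the same classes had medians of -0.67 and 1.41. Up to 40% GC, 19 of 4684 genes in all were called for hindlimb and 749 for forelimb. Above 60% GC 44.8% of 1371 genes were called for hindlimb and 2 genes for forelimb. The median tag GC of the members was 50.7%, against 44.9% for all genes tested. In the class from 40% to 50% GC, the 20 members had a median log2 fold change of 0.54 and all genes -0.08, with 3 members called for hindlimb and none for forelimb, against 2.92% and 4.67% of all genes.

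The ends of the GC range show the same order gene by gene. Rpl19, at 30.8% GC, was among the 4 members of at least 100 counts with the lowest tag GC and was one of those higher in forelimb. Others were Rpl5 at 31.2%, on the 571 counts listed under it, and Rps24, a small-subunit protein, at 32.7%. Rps24 was at 2050 and 3400 CPM in forelimb and 1811 and 1649 in hindlimb, which did not pass the test (log2 fold change -0.65 ± 0.33, edgeR adjusted p = 0.182). At the other end stood Rpl35, a protein at the exit of the peptide tunnel, with 76.5% GC, followed by Rps13, Rps9 and Rps3 at 75.9%, 70.4% and 68.4%. Rpl35 was at 508 and 399 CPM in forelimb and 1142 and 1991 in hindlimb, and all 4 of these GC-rich genes were higher in hindlimb. The log2 fold change of Rpl35 was 1.79 ± 0.34 (edgeR adjusted p = 0.00322).

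**Figure D2:**
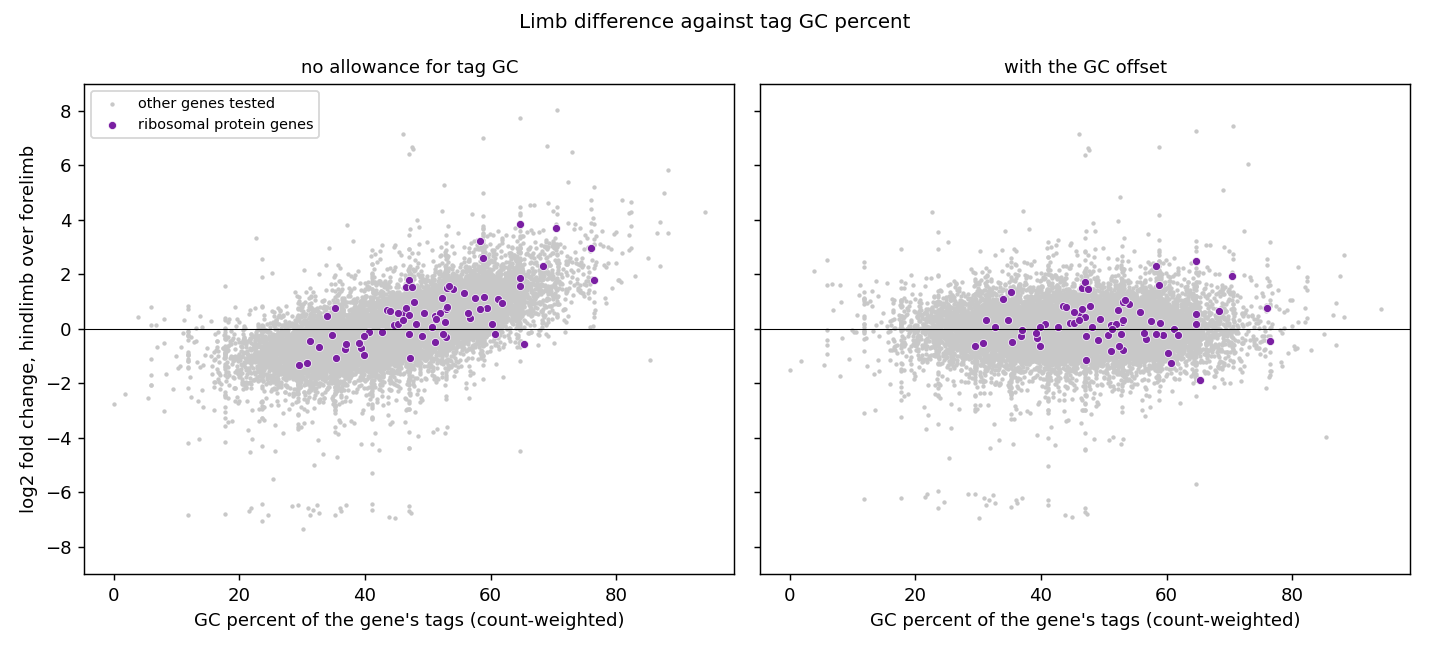
Log2 fold change of hindlimb over forelimb against the count-weighted GC percent of a gene's tags, for 13718 genes tested (grey) and the 69 ribosomal protein genes among them (purple), without (left) and with (right) an offset for tag GC. The purple points rise with GC on the left, with r = 0.69, and are nearly level on the right, with r = 0.087.

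Tags that match 1 gene alone report on the same gene's transcripts. Their comparison does not depend on how much of the gene there is, except where transcript isoforms or the use of NlaIII sites differ. Rpl32, a large-subunit protein, had 2 abundant tags of this kind. They are shown with tags of Rpl12, a protein at the base of the stalk, and Rps6, a small-subunit protein phosphorylated by S6 kinase, which are shared with other genes. The 2 Rpl12 tags match the transcripts of 11 and 3 genes and the 2 Rps6 tags those of 8 and 11, so within these pairs the tags can also differ in the genes they count. Rpl32 was named by rule, and Rpl12 and Rps6 were chosen after their values were seen.
Rpl32 tag 1, 5.88% GC, 3' UTR, chr6:115805526-115805542, minus strand: ttttatGtttaaataaa
Rpl32 tag 2, 76.5% GC, coding sequence, chr6:115807040-115807056, minus strand: CtGCCCaGCGGCttCCG
Rpl12 tag 1, 35.3% GC, coding sequence, chr2:32963810-32963826, plus strand: aCatCataGatGaCatC
Rpl12 tag 2, 70.6% GC, coding sequence, chr2:32961806-32961822, plus strand: CCGCCCaaGttCGaCCC
Rps6 tag 1, 47.1% GC, coding sequence, chr4:86856289-86856305, minus strand: aaGCaaGGtGttCtGaC
Rps6 tag 2, 70.6% GC, coding sequence, chr4:86856267-86856283, minus strand: GCaGaGtGCGCCtGCtG

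In each pair the second tag has more G and C than the first. In Rpl32 and Rpl12 the first tag lies at the last NlaIII site and the second tag at the second from the end. In Rps6 the order is reversed. The last site held 59.9% and 53.9% of the members' counts in forelimb and 52.4% and 52.0% in hindlimb. Within a pair, GC and site cannot be told apart. The AT-rich tag of Rpl32 gave 6310 and 1868 counts in forelimb and 6220 and 1905 in hindlimb, a log2 fold change of -0.57 ± 0.51 (edgeR adjusted p = 0.488 over 37805 single tags). The GC-rich tag of Rpl32 gave 594 and 198 counts in forelimb and 4373 and 5078 in hindlimb, a log2 fold change of 3.03 ± 0.38 (edgeR adjusted p = 0.0155). The limb types overlapped for the first tag and not for the second, and the sum of all Rpl32 tags did not pass the test (log2 fold change 0.46 ± 0.32, edgeR adjusted p = 0.341). The first tag of Rpl12 gave 16360 and 4151 counts in forelimb and 6087 and 4296 in hindlimb, a log2 fold change of -1.47 ± 0.39 (edgeR adjusted p = 0.0575). The second gave 81 and 24 counts in forelimb and 1775 and 2595 in hindlimb, a log2 fold change of 4.85 ± 0.44 (edgeR adjusted p = 0.00863). The fitted directions of the 2 Rpl12 tags were opposite, although the first did not pass. The 2 tags of Rps6, whose places on the mRNA nearly adjoin, gave 6115, 1675, 4085 and 3427 counts and 1076, 221, 4039 and 6256 counts in forelimb replicates 1 and 2 and hindlimb replicates 1 and 2, with log2 fold changes of -0.56 ± 0.38 and 2.57 ± 0.47.

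Over the 48 members whose 2 most abundant tags differed in GC, the richer tag had the higher hindlimb to forelimb ratio in 39, or 81.2%. In all genes this was 72.0% of 6032. Restricted to tags that match 1 gene only, it was 14 of 16 members, with a median difference of 2.42 between the log2 fold changes of the 2 tags. In all genes, such tags gave 72.2% of 5275, with a median difference of 0.98. Among the 6 members with the widest GC gap between such tags, the richer tag was the more hindlimb-weighted in Rpl32, Rpl13a, Rps9, Rpl7l1 and Rps3, and in Rpl19 the difference was small and the other way, with log2 fold changes of -1.29 and -1.53. The tag pairs held 139 and 54 counts in Rpl13a, 70 and 62 in Rps3 and 1335 and 307 in Rpl7l1. None of the tags in these pairs passed alone (edgeR adjusted p from 0.0618 to 0.532). For Rps9, the tag of 41.2% GC gave 31, 9, 26 and 49 counts and the tag of 70.6% gave 51, 15, 1010 and 1141. Of 58 members with more than 1 tag that could be tested, 25 differed between limb types in tag usage (edgeR diffSpliceDGE with Simes adjustment), against 10.4% of all genes tested, with Rpl12 at the smallest adjusted p (9.80e-07). Members and all genes were not matched for counts in this test, so these shares are not on equal terms.

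Single tags of members were taken with at least 50 counts in all. By GC class, their median log2 fold change rose from -1.02 for 15 tags with up to 30% GC to 2.10 for 33 tags above 70%. Of the 235 such member tags tested, 46 were higher in hindlimb and 1 in forelimb. Of all 37805 tags tested, 4.59% and 1.64% were called. That set also holds tags of fewer than 50 counts, so the shares are not on equal terms.

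**Figure D3:**
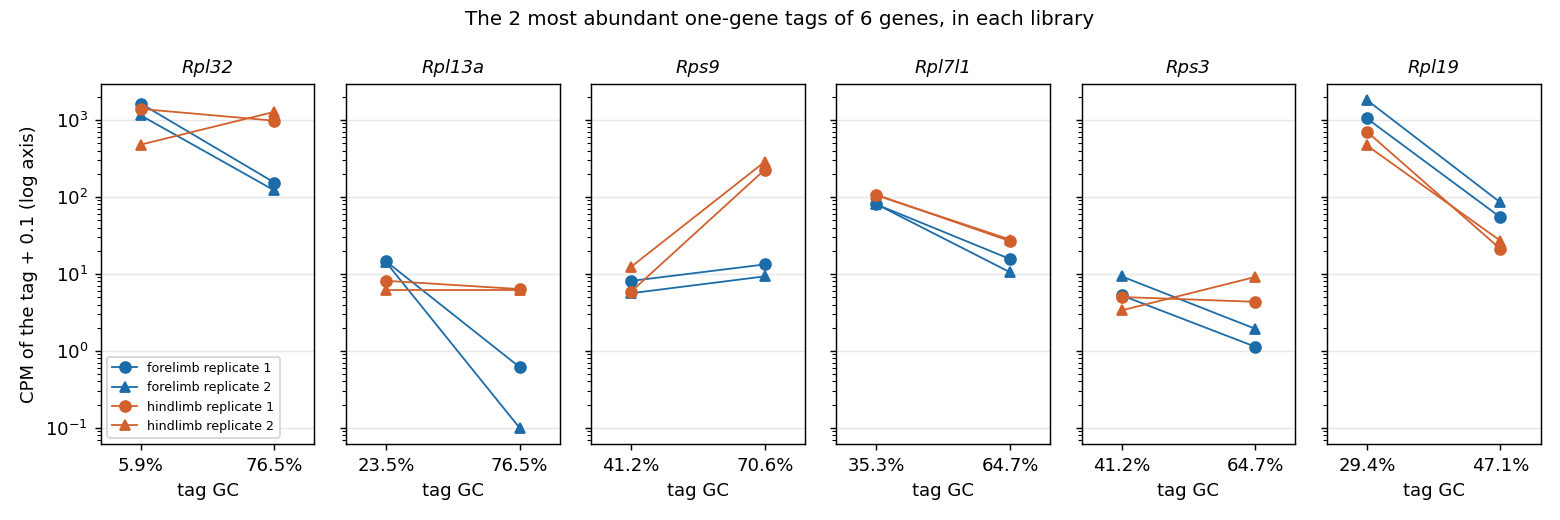
CPM + 0.1 of the 2 most abundant one-gene tags of 6 ribosomal protein genes, on a log axis, with the tag of lower GC at the left of each panel and 1 line per library (blue forelimb, orange hindlimb). In every panel but that of Rpl19 the hindlimb lines lie higher relative to the forelimb lines at the right than at the left.

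The comparison was therefore repeated with an offset for tag GC, a smooth curve per library of the deviations of log2 CPM on the GC of a gene's tags. With this offset 10 members were higher in hindlimb and 3 in forelimb, against 2.87% and 2.99% of all genes. The median log2 fold change of the members was 0.18, against -0.01 for all genes, and 15 of the 69 members changed sign. The correlation with tag GC fell to 0.087, and the SD of the members' log2 fold changes went from 1.12 to 0.81.
Of the 23 members called without the offset, 8 were called with it in the same direction, all of them higher in hindlimb, and 5 were called with the offset only.

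Among the members that passed in both fits were Rpl22l1 (log2 fold change 2.30 with the offset, edgeR adjusted p = 0.00217), Rps9 (1.93, edgeR adjusted p = 0.00203) and Rps7 (1.62, edgeR adjusted p = 0.0109). Rpl38, Rps20 and Rpl27 passed as well, with 1.73, 1.50 and 1.06, and so did Rpl17 with 1.45. Rps13 and Rps3 no longer passed, at 0.76 and 0.67, and Rpl35 turned to -0.45 without passing. None of the 3 genes called for forelimb without the offset passed with it, and the log2 fold changes were -0.51 for Rpl19 and -0.49 for Rpl9. The 5 genes called only with the offset were chosen after their values were seen, except Rps19 and Rpl32. Rpl26, a protein at the tunnel exit, was at 435 and 547 CPM in forelimb and 369 and 298 in hindlimb, and its log2 fold change went from -0.56 to -1.89 (edgeR adjusted p = 0.00382). Rpl34 went from -0.18 to -1.24 (edgeR adjusted p = 0.0104). Rpl39, a small protein of the tunnel wall, went from 0.76 to 1.34 (edgeR adjusted p = 0.0072) and Rpl32 from 0.46 to 1.08 (edgeR adjusted p = 0.0266).

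**Figure D4:**
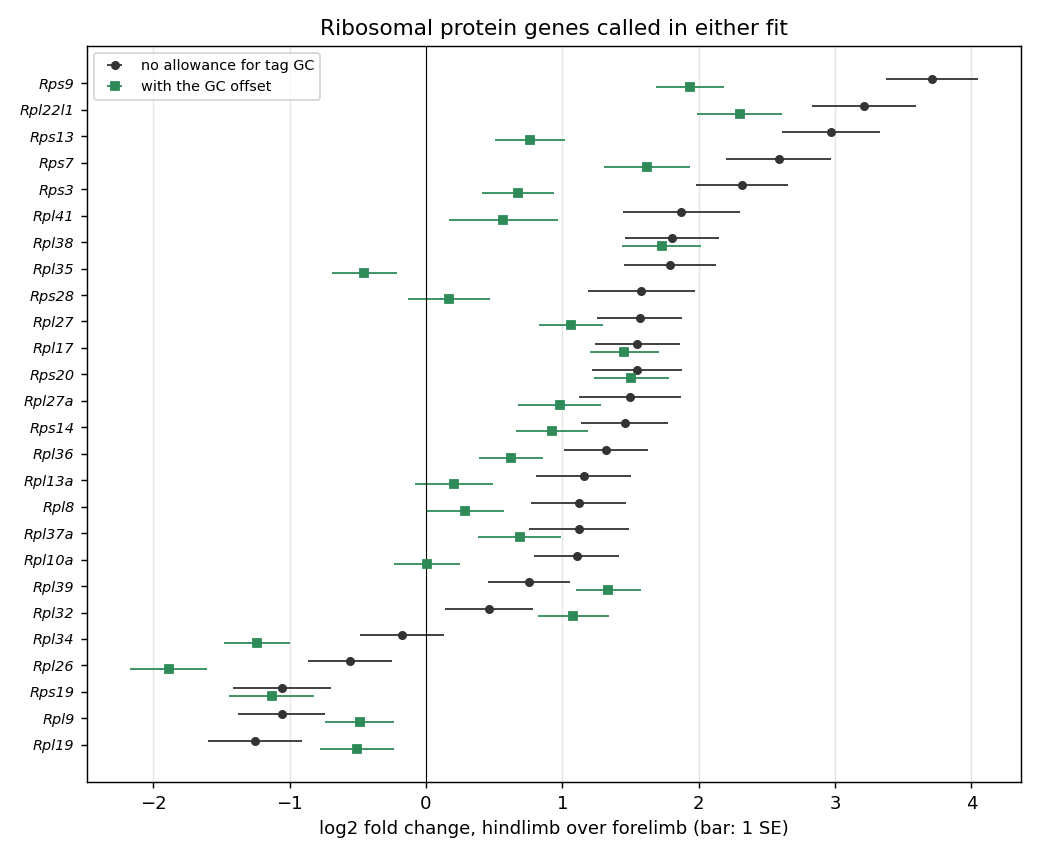
Log2 fold change of hindlimb over forelimb with its SE for 26 ribosomal protein genes called in either fit, without (black circles) and with (green squares) the offset for tag GC. The 7 genes shown that were called in both fits lie right of 0 in both, and Rpl35 crosses 0.

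A second offset used only the contrasts among tags belonging to 1 gene. These were modelled on the base at each position, the neighbouring bases that open the tag, and the squared numbers of G or C and of purines. With it 1 member was higher in hindlimb and 1 in forelimb of the 69, against 0.0875% of all genes in each direction, and the median log2 fold change was 0.016. Rps16, a small-subunit protein chosen after its values were seen, was the member higher in hindlimb, at 1.58 (edgeR adjusted p = 0.0139) from 0.50 without an offset. A tag that matches the transcripts of 6 genes held 99.95% of the Rps16 counts, so the call cannot be given to Rps16 alone. Rpl26 was the member higher in forelimb, at -1.27 (edgeR adjusted p = 0.0159). The main tags of Rpl26 had opposite fitted directions without an offset, and neither passed alone. The tag of 70.6% GC matches the transcripts of 6 genes and was at -0.99 (edgeR adjusted p = 0.124). The tag of 47.1% GC matches those of 10 genes and was at 1.13 (edgeR adjusted p = 0.151). Rpl22l1 was at 1.26 (0.114), Rps7 at 1.39 (0.114), Rpl38 at 0.15 (0.877), Rps20 at 0.15 (0.857) and Rps9 at 0.02 (0.991), all in edgeR adjusted p. The SD of the members' log2 fold changes was then 0.47, against 0.71 for all genes. The limb identity genes Pitx1, Tbx4 and Tbx5 passed with this offset, at 3.50, 2.86 and -4.09.

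Members linked to limb, skeleton or disease were read in the same way. Rpl38 was at 721 and 499 CPM in forelimb and 1566 and 2700 in hindlimb, and 99.9% of its counts came from a tag that matches no other gene. The log2 fold change was 1.80 ± 0.34 (edgeR adjusted p = 0.00332). Rps20, a small-subunit protein, was at 1874 and 1397 CPM in forelimb and 3813 and 5768 in hindlimb, a log2 fold change of 1.55 ± 0.33 (edgeR adjusted p = 0.00595). The Rps20 call rests on a tag that matches the transcripts of 4 genes, and its tags that match 1 gene alone had a log2 fold change of -0.27. Rps19, the gene most often mutated in Diamond-Blackfan anaemia, was at 5498 and 2649 CPM in forelimb and 1710 and 2207 in hindlimb. It lay higher in both forelimb libraries, missed the threshold without the offset (-1.06 ± 0.36, edgeR adjusted p = 0.0529) and passed with the GC offset (-1.13, edgeR adjusted p = 0.0456). Rpsa, a small-subunit protein also known as the laminin receptor precursor, was at 885 and 1202 CPM in forelimb and 1130 and 1154 in hindlimb, with overlap and a log2 fold change of 0.13 ± 0.31. Rpl5 and Rpl11, which with 5S rRNA form a particle that binds Mdm2, did not pass, at -0.44 ± 0.35 and 0.17 ± 0.33. The value of Rpl5 rests on 571 counts, since 26794 counts that match it were listed under Gm15500, and with those counted to Rpl5 it was at 0.10. Of the 10 Diamond-Blackfan anaemia genes tested, Rps7 alone was higher in hindlimb and none in forelimb, with a median of -0.12, a share near the 9.58% of all genes called for hindlimb. With the GC offset Rps7 stayed higher in hindlimb, and Rps19 and Rpl26 were higher in forelimb. Of 7 tested proteins lining or surrounding the peptide exit tunnel, Rpl17 and Rpl35 were higher in hindlimb and Rpl19 in forelimb, and with the GC offset Rpl17 and Rpl39 were higher in hindlimb and Rpl26 in forelimb. The shares over all genes were 9.58% and 7.08% without the offset and 2.87% and 2.99% with it, and nothing is read from counts of this size.

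Paralogues of ribosomal proteins are often restricted to certain tissues. Rpl3l, the form found in striated muscle, had no count, and the testis paralogues Rpl10l and Rps4l were not among the genes of the table. Rpl39l, a paralogue of Rpl39 known from testis, was at 8.40 and 10.5 CPM in forelimb and 10.5 and 15.9 in hindlimb, all from tags that match 1 gene, with a log2 fold change of 0.49 ± 0.52 (edgeR adjusted p = 0.554). The germ cell gene Ddx4 was at 0.618 to 0.764 CPM in the 4 libraries, Dazl was at 0, and Prm1 was not among the genes of the table. Rps27l, a paralogue of Rps27 induced by p53, was at 322 and 260 CPM in forelimb and 381 and 499 in hindlimb (0.59 ± 0.31, edgeR adjusted p = 0.2). Rpl7l1, a paralogue of Rpl7, was at 143 and 142 CPM in forelimb and 214 and 217 in hindlimb, with no overlap, and did not pass (0.60 ± 0.30, edgeR adjusted p = 0.182). Rpl36al, outside the rule, was at 132 and 150 CPM in forelimb and 292 and 405 in hindlimb (1.31 ± 0.31, edgeR adjusted p = 0.0108), and 2538 counts of tags that match Rpl36a were listed under it.

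Many ribosomal protein tags cannot be given to 1 gene, as the mouse genome holds many processed copies of these genes. Tags that match the transcripts of 1 gene held 15.8% of the members' counts, 49 members had less than 10% of their counts on such tags and 21 had none. The main tag of Rps13 matches the transcripts of 6 genes, Rps13-ps1 and Rps13-ps2 among them. The deposited table listed some tags of ribosomal protein genes under another gene. Of 72 symbols of the rule whose transcripts matched at least 1000 counts, 59 had received over 90% of them, and 12 less than 50%. Rpl5 had received 0.96%. Tags of Rpl23a, Rpl30, Rps26 and Rps27, which have no counts of their own in the table, were listed under Gm10132, Rpl30-ps8, Rps26-ps1 and Rps27rt.

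Tags that match 1 symbol of the rule, and otherwise only symbols of pseudogene or predicted-gene form, were then counted to that symbol. Tags that match more than 1 symbol of the rule stayed where they were listed. By this alternative, chosen after seeing the data, 79 symbols could be tested. Of these, 22 were higher in hindlimb and 5 in forelimb, against 9.59% and 7.09% of all genes. The median log2 fold change was 0.57, and with the GC offset the counts were 12 and 5, against 2.88% and 3.03% of all genes, and the median was 0.18. The members' share was then 10.9% and 9.56% in forelimb and 12.2% and 14.4% in hindlimb. Of the members already tested, Rpl41 lost its call, and Rps12 and Rpl36a, named for that change after their values were seen, gained one for hindlimb (1.58 ± 0.34 with edgeR adjusted p = 0.00614 and 1.63 ± 0.33 with edgeR adjusted p = 0.00449). With the GC offset Rpl36a stayed higher in hindlimb (1.55, edgeR adjusted p = 0.00663) and Rps12 did not pass (0.38, edgeR adjusted p = 0.4). Of the counts moved to Rps12, 2345 came from a tag of 64.7% GC listed under Rps12l1, whose main tag stayed there. Rpl5 was at 1534 and 2338 CPM in forelimb and 2014 and 2146 in hindlimb by this count, with a log2 fold change of 0.10 ± 0.32. Rpl24, the gene of the Belly spot and tail mouse mutant, was read at 347 and 144 CPM in forelimb and 271 and 475 in hindlimb (0.60 ± 0.39, edgeR adjusted p = 0.306). Rps4l had 35 and 7 counts in forelimb and 46 and 16 in hindlimb. Rpl23a, chosen after its values were seen, was higher in forelimb, at 5587 and 4748 CPM against 2185 and 1440 (-1.51 ± 0.33, edgeR adjusted p = 0.00622), and did not pass with the GC offset (-0.73 ± 0.25, edgeR adjusted p = 0.0982).

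Other genes of protein synthesis were read from lists drawn up from textbook roles. Of the stalk proteins and Fau, Rplp0 was higher in hindlimb (1.04, edgeR adjusted p = 0.0304), while Rplp1, Rplp2 and Fau itself were at 0.06, 0.14 and 0.73 without passing. With the GC offset Rplp0 was at 0.32 and none of these genes passed. Of 23 translation factors, 6 were higher in hindlimb and 1 in forelimb, with a median of 0.05, and with the GC offset 3 and 1, with a median of 0.20. Of 34 ribosome biogenesis genes the counts were 4 and 3, with a median of 0.15, and with the GC offset 1 and 0, with a median of 0.0037. Of 74 mitochondrial ribosomal proteins, whose genes encode a separate ribosome, 16 were higher in hindlimb and 5 in forelimb, with a median of 0.49, and with the GC offset the counts were 4 and 3 and the median 0.02. Their median tag GC was 50.7%, the same to 3 digits as that of the cytosolic genes. Over all genes tested, 9.58% were called for hindlimb and 7.08% for forelimb, and with the GC offset 2.87% and 2.99%.

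The annotated transcription start of 57 members was found among RefSeq promoters of GRCm38. A start of C followed by 4 bases that are each C or T, the letters of a terminal oligopyrimidine tract on the sense strand, was present in 11 of the 57, or 19.3%, against 3.01% of 27025 symbols in all. They were Rpl14, Rpl15, Rpl28, Rpl35, Rpl35a, Rpl38, Rps10, Rps15a, Rps18, Rps21 and Rps6. Only the 5 bases from the annotated start were read, so a tract that begins a few bases away was missed. The other members are therefore not shown to lack the tract. The same letters stood at the start of 2 of the 17 translation factors matched, or 11.8%. They stood at the start of none of the 28 ribosome biogenesis and 69 mitochondrial ribosomal protein genes matched.

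Markers of some other tissues of the limb differed between the limb types as well. Of 3 skeletal muscle markers, Acta1 and Myh3 passed as higher in forelimb and Myog was not called, and their summed level was 2359 and 1832 CPM in forelimb against 745 and 797 in hindlimb. Of 5 erythroid markers 3 were tested. Hbb-bs was higher in forelimb and the other 2 were not called, and 1 of the 3 had a log2 fold change above 0. The erythroid sum was 11784 and 9376 CPM in forelimb and 4827 and 5602 in hindlimb. Hba-a1 was not among the genes of the table. The 3 cartilage markers summed to 1274 and 964 CPM in forelimb and 2090 and 3487 in hindlimb, with Col2a1 higher in hindlimb (1.46, edgeR adjusted p = 0.0103) but not with the GC offset (0.43, edgeR adjusted p = 0.366). With the GC offset all 3 muscle markers and Hbb-bs passed as higher in forelimb, while the median log2 fold change of the 3 erythroid markers tested was 0.05. Of 3 epidermis markers, Krt14 was higher in hindlimb and Trp63 in forelimb, and neither passed with the GC offset. The limb mesenchyme markers Prrx1 and Twist1 were not called, with a sum of 1149 and 1202 CPM in forelimb and 1177 and 862 in hindlimb, and neither was the macrophage marker Csf1r. The part of these tissues in the ribosomal protein differences was not tested.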

How the data were processed

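Tag counts were measured in 4 DGE-SAGE libraries, 2 of forelimb and 2 of hindlimb. The authors deposited 1 table of whole-number counts per tag, unnormalized, in which part of the tags carry an Ensembl gene or a UniGene cluster. Per the submitters' processing notes, the tools and builds included Bowtie and mm9, with a version not given in the sources used here. Of 733961 tags of 17 bases, 166502 had a gene or cluster. Tags with neither, from 14.8% to 18.7% of a library's counts, entered neither library sizes nor tests. Symbols came from GENCODE M21 (17004 of 17677 identifiers matched), and positions and shared tags from matching each tag after CATG to the sense strand of its transcripts, on GRCm38.

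Counts were summed per Ensembl gene, or per cluster where there was none, and tested with edgeR 4.0.16 in R 4.3.3: TMM, filterByExpr, glmQLFit and glmQLFTest on the 4 libraries, without a block, with Benjamini-Hochberg adjustment over all genes at 0.05. SE is the Wald standard error from the quasi-likelihood fit. The GC offset is a lowess (span 0.3) per library. The tag-sequence offset was fitted on 42831 tags of 9913 genes with at least 20 counts. Tag usage was tested with diffSpliceDGE, DESeq2 1.42.0 was an alternative, and scipy 1.17.1 gave the exact permutation test. The scripts were tested on simulated data. Other alternatives were library totals without TMM, no filter, tag choices and leaving out each library.

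With gene-assigned totals of 3960474, 1558607, 4330011 and 4241973, 1 count was worth 0.222 to 0.618 CPM. Tags are PCR products without molecular identifiers, and p-values measure the spread between these libraries. Named genes are the 6 most abundant members, the 6 called members with the smallest p in each direction, the 4 lowest and 4 highest in tag GC with at least 100 counts, paralogues, the limb and skeleton list, members with no count, and the 6 members with the widest GC gap between one-gene tags of at least 50 counts. Some items that the rule names are not reported here, though counts and medians include them. Members, lists and this rule were chosen with earlier results of these data known.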

Additional observations from a re-analysis of the deposited data

How the results depend on the processing

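Over 24 named genes and 16 alternatives, 280 of 376 values kept their direction and their side of the threshold, 41 lost the call, 18 gained it and 37 changed sign. With the replicate number as a block, 20 members were called for hindlimb and 2 for forelimb (all genes 1179 and 969, members' median 0.58). The labels do not say that equal numbers pair the libraries, and the correlation of their deviations was -0.11, so the block is given here only.

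With the GC offset 10 members were called for hindlimb (all genes 394 and 410, members' median 0.18). With GC offset and block together there were 10 (all genes 399 and 410, members' median 0.22). Signs changed for Rpl11 (-0.88 and -0.87 in these 2 fits), Rpl35 (-0.45 and -0.45), Rpl5 (0.33 and 0.31) and Rps24 (0.056 and 0.082). With the tag-sequence offset 1 member was called for hindlimb and 1 for forelimb (all genes 12 and 12, members' median 0.016). Here signs changed for Rpl19 (0.65), Rpl21 (-0.021), Rpl32 (-0.41), Rpl7 (0.23), Rpl9 (0.16), Rps10 (-0.037), Rps19 (0.23), Rps27l (-0.53), Rps3 (-0.63) and Rpsa (-0.37). Members called for forelimb numbered 5 with library totals alone, 5 with no filter, 5 with DESeq2 and 6 with the most abundant tag. One-gene tags left 40 members to test, 10 of them called for hindlimb. The shares over all genes in these fits are not given here, so nothing is read from these counts. With the most abundant tag Rpl32 was at -0.62 and Rps24 at 0.029. With one-gene tags the share difference was 0.70 points, and signs changed for Rpl13a (-0.12), Rpl7 (1.77), Rps19 (0.97), Rps20 (-0.27) and Rpsa (-0.68). At the last NlaIII site they changed for Rpl32 (-0.62), Rpl5 (0.32) and Rps24 (0.034).

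With tags reassigned to the parent gene Rpl5 was at 0.10. With reassignment and the GC offset, 11 of the 75 members were called for hindlimb (all genes 395 and 415, members' median 0.18). Here signs changed for Rpl11 (-0.87), Rpl35 (-0.45), Rpl5 (0.12) and Rps24 (0.047). Leaving out 1 library gave 13 to 29 members for hindlimb and 1 to 5 for forelimb, 583 to 1899 and 367 to 2001 genes, a median of 0.37 to 0.75 and a share difference of 2.04 to 4.03 points. In those fits, where the lone library of a limb type is assumed to vary like the others, Rpl11 ranged from -0.18 to 0.45, Rpl7 from -0.57 to 0.17 and Rpsa from -0.072 to 0.36. Apart from the offsets, fewer tags and fewer libraries, the cause of these changes was not tested. With 2 libraries in each limb type, and forelimb replicate 2 at fewer counts than the others, the SE of a member's log2 fold change ran from 0.30 to 0.91 (Rpl36a).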
